A study of Mus musculus with 36 samples.

Results

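Lipid-associated macrophages are macrophages of fat tissue that take up and store lipid, and 9 genes named with them in obese adipose tissue, *Spp1*, *Gpnmb*, *Atp6v0d2*, *Trem2*, *Cd9*, *Lgals3*, *Mmp12*, *Fabp5* and *Plin2*, are described here in mouse epididymal white adipose tissue (eWAT). They were chosen by gene symbol, and each matched 1 row, so that they were 9 of the 24750 genes in the expression table. All 9 passed the filter on low values, as did 17852 genes of the table. *Gpnmb*, *Atp6v0d2* and *Spp1* had been singled out by the study in these same libraries, so their direction is not independent evidence.

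In the fat of obese mice, macrophages gather around dying adipocytes, engulf the lipid that these release and break it down in lysosomes. The receptor TREM2 senses lipids on the macrophage surface and signals through the adaptor TYROBP, and cells with this programme express genes for lipid binding, lipid storage and lysosomal acidification. *Spp1* encodes osteopontin, a secreted phosphoprotein that binds CD44 and integrins, attracts immune cells and is also a component of bone matrix.

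RNA was sequenced from the eWAT of 36 male mice, 1 library per mouse, in 12 groups of 3. WT mice were C57BL/6, and CCL19-KI mice were homozygous for murine *Ccl19* inserted at the *Adipoq* locus, whose promoter drives it in adipocytes. By the study's account the endogenous *Adipoq* gene was not disrupted. WT mice were bred separately and were not littermates of the CCL19-KI mice. Mice of each genotype received a normal diet (ND), a 40% high-fat diet (40% HFD) or a 60% HFD for 10 weeks, and in each of these 6 arms 3 mice carried a silk ligature around upper molars for the last 2 weeks, which induces periodontitis, and 3 did not. The study put the start of the diets at 6 weeks of age, ligation at 14 weeks of age after 8 weeks of feeding, and tissue collection followed at 16 weeks. The comparisons ask how diet, adipocyte *Ccl19* and ligation go with the level of these genes in visceral fat.

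Expression is given as deposited, in CPM (read counts scaled to the size of the library). The libraries held 11962228 to 21581595 reads (median 15573273), so that 1 read was worth 0.0472 to 0.0834 CPM and a count of 3 reads 0.142 to 0.250 CPM. Every value of the 9 genes in the 36 libraries was above that floor. *Ccl19*, the inserted gene, was between 0.507 and 4.51 CPM in 17 of the libraries labelled WT and between 5.57 and 34.6 CPM in 17 of those labelled CCL19-KI. The remaining 2 libraries went against their labels. The library labelled unligatured WT, ND, number 2 had 19.2 CPM of *Ccl19* and 41.9 CPM of *Gm2564*, a predicted gene that was at most 0.160 CPM in the other libraries labelled WT and at least 11.6 CPM in the others labelled CCL19-KI, and the library labelled unligatured CCL19-KI, 60% HFD, number 3 had 0.687 and 0 CPM. Neither was moved to another group, and values over the other 34 libraries are given beside the results. In those 34 libraries *Adipoq* itself was at 615 to 3937 CPM (median 2354) in WT and 300.1 to 1246 CPM (median 584) in CCL19-KI mice. The cause of that difference was not tested. The library of unligatured WT, ND, number 1 also stood apart, with 4217 CPM of the adipocyte hormone gene *Lep*, the highest of 36, against a median of 467 CPM on ND, and 7 of the 9 genes had it among their 3 highest libraries.

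*Spp1* lies on the plus strand at chr5:104435118-104441050, *Gpnmb* on the plus strand at chr6:49036546-49070929 and *Atp6v0d2* on the minus strand at chr4:19876841-19922605 (GRCm38, GENCODE M21). *Trem2* is at chr17:48346401-48354147, *Lgals3* at chr14:47367751-47386160, *Mmp12* at chr9:7344381-7369499 and *Fabp5* at chr3:10012548-10016607, all on the plus strand, whereas *Cd9* at chr6:125460266-125494791 and *Plin2* at chr4:86648386-86670060 are on the minus strand. All 9 are protein coding. The promoters below, from 250 bases before to 50 bases after a start site in RefSeq on GRCm38.p6, belong to *Spp1* and to a pair of genes whose levels followed it across libraries, and are shown so that the sequence upstream of genes that moved together can be compared. Capitals mark matches on either strand to the 4 motifs searched. The letters TGANTCA are the site of AP-1 factors. The letters GAGGAAG are a site of ETS factors such as PU.1, the letters CACGTG an E-box bound by MITF and TFE factors of lysosomal genes, and the letters TATAAA the TATA box. No 2 of the matches shown overlap.
Spp1, chr5:104434861-104435160, plus strand: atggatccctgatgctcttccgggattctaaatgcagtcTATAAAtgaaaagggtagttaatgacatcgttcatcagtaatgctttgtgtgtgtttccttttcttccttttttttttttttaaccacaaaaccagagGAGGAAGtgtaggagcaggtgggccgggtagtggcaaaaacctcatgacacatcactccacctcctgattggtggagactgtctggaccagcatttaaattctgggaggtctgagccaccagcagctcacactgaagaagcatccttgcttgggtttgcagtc
Gpnmb, chr6:49036268-49036567, plus strand: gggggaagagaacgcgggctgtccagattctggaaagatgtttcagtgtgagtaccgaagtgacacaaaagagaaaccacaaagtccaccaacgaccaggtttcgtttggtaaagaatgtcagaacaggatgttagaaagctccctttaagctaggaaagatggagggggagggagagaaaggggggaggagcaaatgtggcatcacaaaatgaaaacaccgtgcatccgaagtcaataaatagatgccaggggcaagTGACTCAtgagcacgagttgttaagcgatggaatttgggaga
Mmp12, chr9:7347124-7347423, plus strand, start site 2 of its entries: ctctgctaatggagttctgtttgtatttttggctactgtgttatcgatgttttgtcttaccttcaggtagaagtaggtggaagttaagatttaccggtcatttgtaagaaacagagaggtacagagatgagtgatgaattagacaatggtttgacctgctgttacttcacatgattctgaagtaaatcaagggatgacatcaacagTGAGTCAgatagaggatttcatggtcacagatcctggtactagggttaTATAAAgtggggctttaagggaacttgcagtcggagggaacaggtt
The *Spp1* window held GAGGAAG from base -113 and TATAAA from base -211 relative to the start site, the *Gpnmb* window TGACTCA from base 9, and the *Mmp12* window TGAGTCA from base -44 and TATAAA from base 5. The table held 9 windows for 7 of the members, with 2 start sites each for *Spp1* and *Mmp12*. A match to TGANTCA stood in 3 of these 9 windows (*Gpnmb*, *Trem2* and start site 2 of *Mmp12*), where 7.81% of 32851 mouse promoters of this length had one. GAGGAAG stood in 3 (start site 1 of *Spp1* and of *Mmp12*, and *Trem2*; 13.6% of all), TATAAA in 2 (13.6%), and CACGTG, at base -4, in *Plin2* alone (7.15%). *Atp6v0d2* and *Fabp5* were the members matched to none of the entries.

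The PCR primers with which the study measured *Spp1* are shown because they mark the part of the transcript that its separate assay read.
Spp1 forward primer: gcttggcttatggactgaggtc
Spp1 reverse primer: ccttagactcaccgctcttcatg
The forward primer matched chr5:104439491-104439512 and the reverse primer, as its reverse complement, chr5:104440264-104440286 in the next coding exon. Both lay in 4 of 7 annotated *Spp1* transcripts and spanned 114 bases of each.

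Per kilobase of exon, *Plin2* and *Lgals3* were the most abundant members and *Spp1* was among the least. The median over 36 libraries was 98.2 CPM per kb for *Plin2*, which coats lipid droplets, and 66.7 for *Lgals3*, which encodes the carbohydrate-binding galectin-3. *Fabp5*, a fatty acid binding protein, had a median of 28.9 CPM per kb and the tetraspanin *Cd9* 19.7. *Gpnmb*, a membrane glycoprotein of lysosome-rich phagocytes, stood at 5.79, *Atp6v0d2*, a subunit of the vacuolar proton pump also needed for fusion of osteoclast precursors, at 3.39, *Trem2* at 2.97, the macrophage elastase *Mmp12* at 2.33 and *Spp1* at 2.14. The least abundant genes also had the widest range: *Mmp12* ran from 0.0667 to 42.9 CPM per kb and *Spp1* from 0.188 to 28.3, while *Cd9* ran from 9.93 to 60.0.

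**Figure D1:**
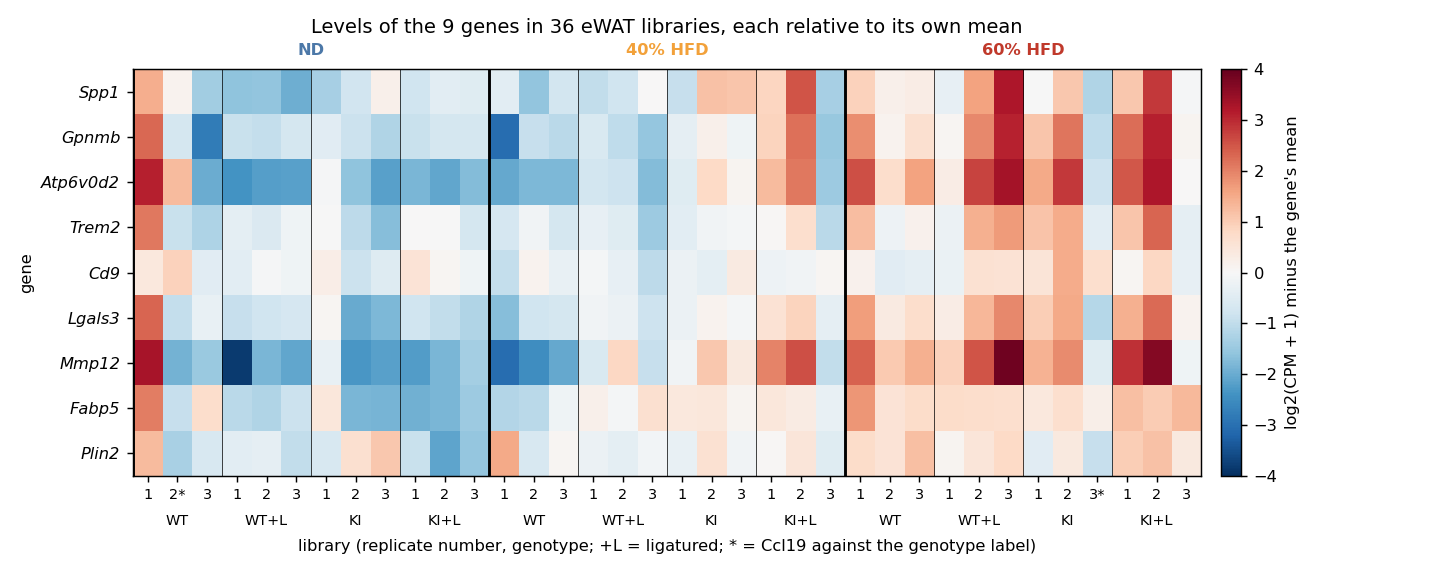
Heat map of the 9 genes (rows) in the 36 libraries (columns, by diet, genotype and ligature), coloured by log2(CPM + 1) minus the gene's mean over all libraries. An asterisk marks the 2 libraries whose *Ccl19* went against the label. Each gene was above its mean in most of the 12 libraries of the 60% HFD, and the library of unligatured WT, ND, number 1 was above the mean for all 9 genes.

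Of the 3 factors, diet went with called differences in these genes when averaged over the others. Averaged over the 4 combinations of genotype and ligature, 8 of the 9 genes were higher on the 60% HFD than on ND (limma on log2(CPM + 1), Benjamini-Hochberg adjusted p below 0.05 over 17852 genes), and *Cd9* did not pass. Over all genes 18.6% passed in this comparison, and 10.2% passed as higher. The median log2 fold change of the 9 was 1.63, against 0.01 over all genes tested. Each library came from 1 mouse, so the error is the spread between mice, and in bulk tissue fewer cells of a type cannot be told apart from less RNA per cell.

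*Spp1*, the secreted ligand of the set, was at 0.310 to 12.9 CPM on ND (median 1.98, n = 12), 0.708 to 28.0 CPM on the 40% HFD (median 2.41, n = 12) and 1.23 to 46.7 CPM on the 60% HFD (median 7.04, n = 12). The ranges overlapped widely, and the top of the ND range was the library of unligatured WT, ND, number 1; without it the highest ND value was 4.95 CPM. *Spp1* was higher by 1.52 on the log2 scale on the 60% HFD than on ND (SE 0.44, adjusted p = 0.0186). Without the 2 libraries whose *Ccl19* went against the label the difference was 1.67 (adjusted p = 0.0192), and without the library of unligatured WT, ND, number 1 as well it was 2.03 (adjusted p = 0.00673).

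By group, mean *Spp1* was lowest in ligatured WT mice on ND, at 0.569 ± 0.225 CPM (SD, n = 3), and highest in ligatured WT mice on the 60% HFD, at 21.5 ± 22.6 CPM (SD, n = 3). In the order of the 12 group means, neighbouring groups overlapped at all 11 steps for *Spp1*, and the same held for each member except *Atp6v0d2*, for which 2 of 11 steps were free of overlap. In ligatured WT mice *Spp1* was 0.690, 0.709 and 0.310 CPM on ND, 1.61, 1.96 and 4.17 CPM on the 40% HFD, and 3.11, 14.5 and 46.7 CPM on the 60% HFD. The ND values rested on few reads, as few as 4 in number 3. Values on ND and the 60% HFD did not overlap in these mice. The share of all genes without overlap between groups was not counted, here or below. Separation of 3 from 3 mice is therefore given as a description only.

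**Figure D2:**
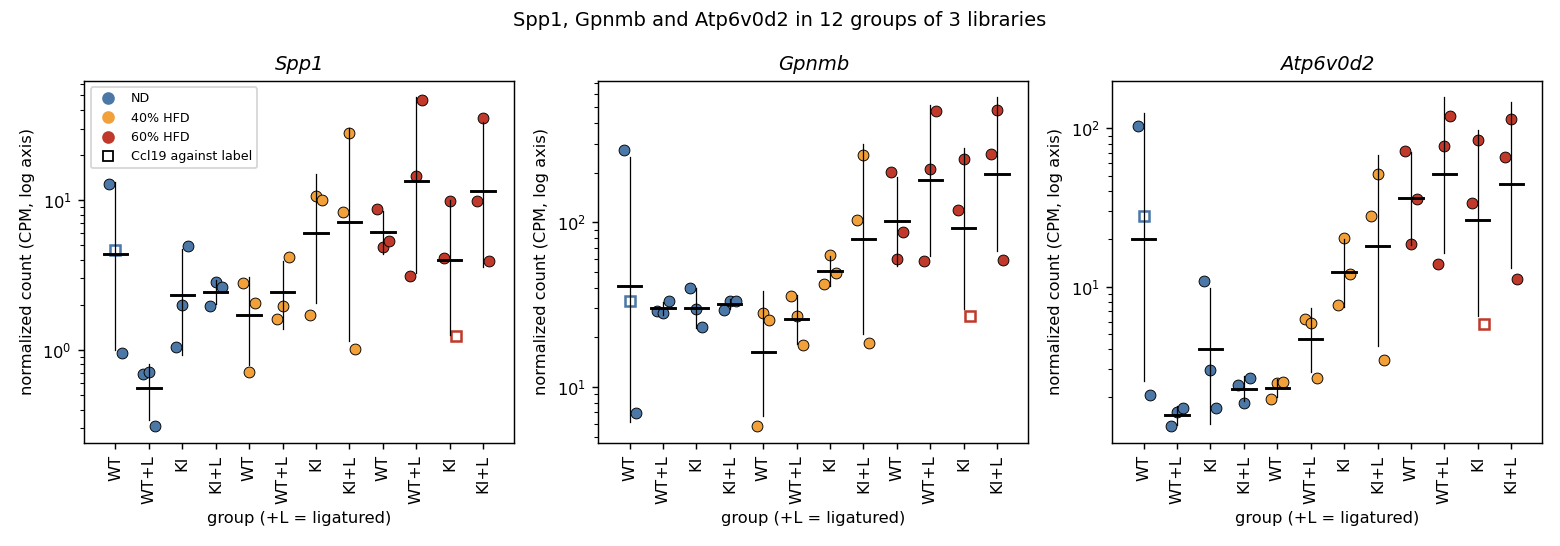
CPM of *Spp1*, *Gpnmb* and *Atp6v0d2* on a log axis in the 12 groups; each dot is a library, the bar and line are the mean and SD of the log2 values of 3 libraries, back-transformed, and open squares are the 2 libraries whose *Ccl19* went against the label. *Spp1* was between 0.310 and 0.709 CPM in ligatured WT mice on ND and between 3.11 and 46.7 CPM in ligatured WT mice on the 60% HFD, and the values of most other groups overlapped.

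*Gpnmb* and *Atp6v0d2*, both of the lysosomal side of the programme, were higher on the 60% HFD as well. *Gpnmb* was at 6.95 to 275 CPM on ND (median 31.4), 5.78 to 256 CPM on the 40% HFD (median 31.9) and 26.8 to 483 CPM on the 60% HFD (median 160.1). It was higher by 2.00 on the log2 scale on the 60% HFD than on ND (SE 0.50, adjusted p = 0.00839). With edgeR on the reads *Gpnmb* differed by 2.08 and *Spp1* by 2.22. *Atp6v0d2* was at 1.31 to 103 CPM on ND (median 2.22), 1.95 to 51.8 CPM on the 40% HFD (median 6.05) and 5.79 to 120.3 CPM on the 60% HFD (median 51.0). Its difference between the 60% HFD and ND was 2.86 (SE 0.52, adjusted p = 9.34e-04), or 3.17 (adjusted p = 9.00e-04) without the 2 libraries whose *Ccl19* went against the label. For both genes the highest ND value belonged to unligatured WT, number 1, and without that library the ND ranges ended at 39.9 CPM for *Gpnmb* and 28.1 CPM for *Atp6v0d2*. The 28.1 CPM was the library labelled unligatured WT, ND, number 2.

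The surface proteins of the set, *Trem2* and *Cd9*, had smaller fitted differences. *Trem2* was at 4.48 to 76.5 CPM on ND (median 11.9), 5.53 to 27.4 CPM on the 40% HFD (median 12.9) and 12.3 to 89.9 CPM on the 60% HFD (median 38.2). It was higher by 1.17 on the 60% HFD than on ND (SE 0.36, adjusted p = 0.0253). This call was lost without the library labelled unligatured WT, ND, number 2 (1.06, adjusted p = 0.0516) and without ligatured CCL19-KI, 60% HFD, number 2 (1.00, adjusted p = 0.0511). *Cd9* was at 23.7 to 82.9 CPM on ND (median 40.1), 20.3 to 55.5 CPM on the 40% HFD (median 37.2) and 31.7 to 123 CPM on the 60% HFD (median 55.9). Its log2 difference between the 60% HFD and ND was 0.33 (95% interval -0.05 to 0.71, adjusted p = 0.211); the interval held 0. CD9 is a broadly expressed protein and not restricted to macrophages.

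*Mmp12*, the elastase, and *Lgals3* encode secreted proteins, and both were higher on the 60% HFD. *Mmp12* was at 0.483 to 207 CPM on ND (median 4.80), 1.58 to 126 CPM on the 40% HFD (median 15.3) and 14.0 to 310.4 CPM on the 60% HFD (median 66.3), and was higher by 3.28 on the log2 scale on the 60% HFD than on ND (SE 0.55, adjusted p = 5.20e-04). Without unligatured WT, ND, number 1, which held the 207 CPM, no ND library was above 16.2 CPM. *Lgals3* was at 34.4 to 705 CPM on ND (median 76.8), 43.0 to 265 CPM on the 40% HFD (median 119) and 63.7 to 681 CPM on the 60% HFD (median 319), a log2 difference of 1.63 between the 60% HFD and ND (SE 0.35, adjusted p = 0.00280). The 705 CPM of that same ND library was the highest *Lgals3* value of all 36, and without it the ND values ended at 149.8 CPM.

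The lipid-handling members were both higher on the 60% HFD. *Fabp5* was at 20.3 to 333 CPM on ND (median 35.4), 34.6 to 125 CPM on the 40% HFD (median 88.7) and 92.7 to 269.8 CPM on the 60% HFD (median 131). *Fabp5* was higher by 1.65 on the log2 scale on the 60% HFD than on ND (SE 0.26, adjusted p = 2.36e-04), the smallest adjusted p of the set. Without unligatured WT, ND, number 1 the highest ND value was 130.1 CPM. *Plin2* was at 80.5 to 845 CPM on ND (median 227), 227 to 1023 CPM on the 40% HFD (median 324) and 188 to 817 CPM on the 60% HFD (median 503), and differed by 0.94 (SE 0.27, adjusted p = 0.0174) between the 60% HFD and ND. Adipocytes and hepatocytes also express *Plin2*.

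**Figure D3:**
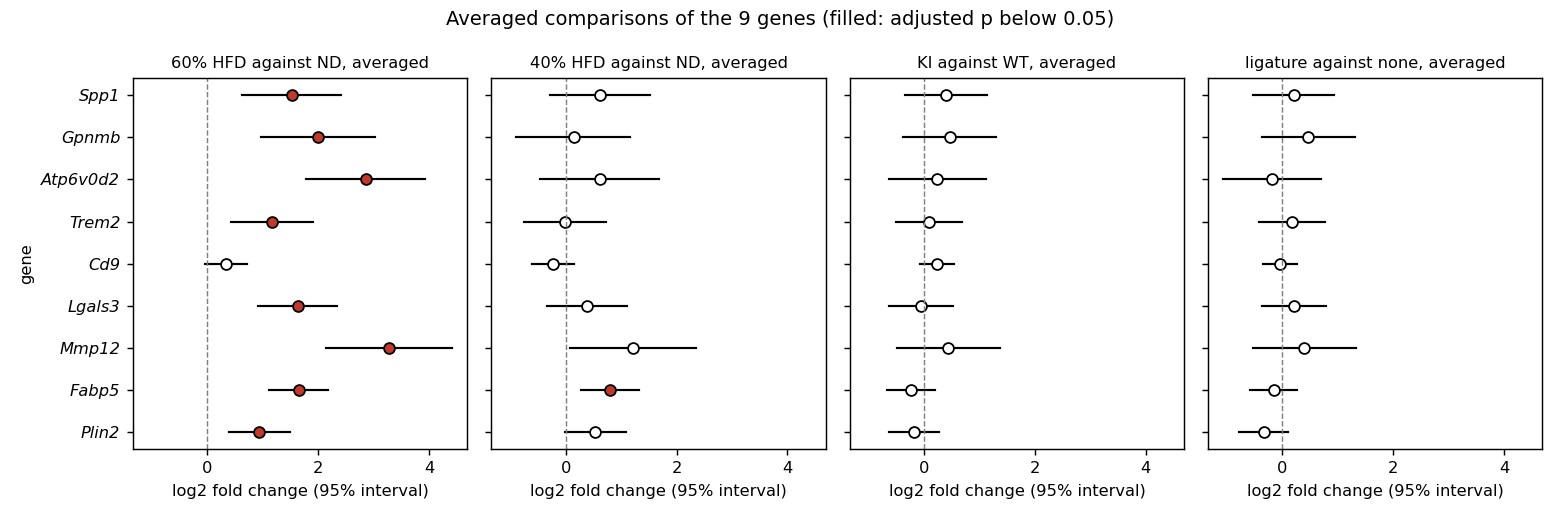
Log2 fold changes of the 9 genes in 4 comparisons, each averaged over the other factors, with 95% intervals; filled points have an adjusted p below 0.05. On the 60% HFD against ND 8 of 9 points are filled, from 0.94 for *Plin2* to 3.28 for *Mmp12*; on the 40% HFD against ND *Fabp5* is filled; for CCL19-KI against WT and for ligature against none no point is filled.

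In the fit of the 34 libraries whose *Ccl19* matched the label, the same comparison of the 60% HFD with ND again called 8 members (15.0% of 17585 genes), with *Gpnmb* at 2.18, *Lgals3* at 1.66, *Mmp12* at 3.23, *Fabp5* at 1.48 and *Plin2* at 0.88, and *Cd9* at 0.43 (adjusted p = 0.127), and without unligatured WT, ND, number 1 as well it called 8 (14.8% of 17550). Among the 18 ligatured mice alone 8 were called (35.6% of 16653 genes), with differences of 2.54 for *Spp1* (adjusted p = 0.00965), 4.08 for *Atp6v0d2* (adjusted p = 5.55e-04) and 4.48 for *Mmp12* (adjusted p = 7.64e-04). Hepatocyte genes moved with the diet as well: 11 of 14 were higher on the 60% HFD than on ND (10.2% of all genes), with a median log2 difference of 3.05. Their summed level was 878 to 36608 CPM on ND, 1473 to 51398 CPM on the 40% HFD and 756 to 49844 CPM on the 60% HFD, with 6 of the 14 at 0 in some ND library and none at 0 elsewhere. The mean log2 level of this list was at most 1.72 in 6 libraries, which included all 3 of unligatured WT on ND, and at least 5.08 in the others. With that mean as a covariate, 4 members were called on the 60% HFD against ND (10.8% of all genes): *Atp6v0d2* (2.45, adjusted p = 0.0126), *Lgals3* (1.47, adjusted p = 0.0239), *Mmp12* (3.11, adjusted p = 0.00443) and *Fabp5* (1.82, adjusted p = 8.29e-04). *Spp1* was then at 0.81 (adjusted p = 0.293), *Gpnmb* at 1.58 (adjusted p = 0.0871), *Trem2* at 0.99 (adjusted p = 0.142) and *Plin2* at 0.36 (adjusted p = 0.402).

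Within single combinations of genotype and ligature, each with 3 mice per diet, fewer members passed. In ligatured WT mice 3 of 9 were higher on the 60% HFD than on ND, where 2.57% of all genes passed: *Spp1* by 3.22 (SE 0.87, adjusted p = 0.0455), *Atp6v0d2* by 4.36 (adjusted p = 0.0246) and *Mmp12* by 5.02 (adjusted p = 0.0152). *Atp6v0d2* in these mice was 1.31, 1.62 and 1.70 CPM on ND and 13.9, 77.6 and 120.3 CPM on the 60% HFD, and *Mmp12* was 0.483, 4.91 and 3.95 CPM on ND and 38.7, 120.0 and 310.4 CPM on the 60% HFD. Neither gene overlapped between these diets. In ligatured CCL19-KI mice 5 of 9 were higher (12.8% of all genes): *Atp6v0d2* by 3.80, *Lgals3* by 2.27, *Mmp12* by 3.94, *Fabp5* by 2.91 and *Plin2* by 2.36, while *Spp1*, at 1.96, 2.82 and 2.63 CPM on ND and 9.81, 35.2 and 3.95 CPM on the 60% HFD, differed by 1.85 (adjusted p = 0.145). Over both high-fat diets and all 4 combinations, with 9 members in each, 10 member values were called against ND. The share of all genes called ran from 0% (40% HFD, unligatured CCL19-KI) to 12.8% (60% HFD, ligatured CCL19-KI) in these comparisons. The member count was 4 without ligatured CCL19-KI, ND, number 2, 6 without number 3 of that group and 6 without ligatured CCL19-KI, 60% HFD, number 1.

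The same diet contrast was also made in unligatured mice. *Cd9* was the 1 member higher on the 60% HFD in unligatured CCL19-KI mice (1.25, adjusted p = 0.0362), where 10.2% of all genes passed; it was 52.7, 23.7 and 30.4 CPM on ND and 62.5, 123 and 70.0 CPM on the 60% HFD. In unligatured WT mice 0 of 9 passed (3.41% of all genes), and there *Gpnmb* was 275, 33.3 and 6.95 CPM on ND and 201, 60.1 and 86.6 CPM on the 60% HFD. Among the 34 libraries whose *Ccl19* matched the label, the counts were 4 in ligatured WT (4.75% of all genes), 5 in ligatured CCL19-KI (19.6%), 3 in unligatured CCL19-KI (8.51%) and 0 in unligatured WT mice (2.11%). Without unligatured WT, ND, number 1 as well they were 5 (5.25%), 6 (19.3%), 6 (8.95%) and 0 (0%). No member differed between ligatured and unligatured mice in its response to the 60% HFD at an adjusted p below 0.05. Of all genes 0% passed there, and 5.17% of 17585 genes did in the fit of the 34 libraries. Over those 34 libraries *Fabp5* did, its response being larger in ligatured mice by 1.71 (adjusted p = 0.0323), and without unligatured WT, ND, number 1 as well 0 did.

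The 40% HFD went with a smaller difference. Against ND 1 of 9 members passed, *Fabp5*, by 0.80 (SE 0.26, adjusted p = 0.0496), where 9.21% of all genes passed, and this call was lost in 28 of 36 fits that left out 1 library and without the 2 libraries whose *Ccl19* went against the label (0.60, adjusted p = 0.0907). *Spp1* differed by 0.62 (adjusted p = 0.377), *Gpnmb* by 0.14 (adjusted p = 0.886) and *Mmp12* by 1.22 (adjusted p = 0.157). Within ligatured CCL19-KI mice *Fabp5* was again the 1 member called (4.92% of all genes), at 20.3, 21.4 and 28.3 CPM on ND and 108, 100.5 and 64.5 CPM on the 40% HFD, a difference of 1.90 (adjusted p = 0.0330) without overlap. Among the 18 ligatured mice alone, where 15.9% of 16653 genes passed, 3 members did, *Fabp5* (1.61, adjusted p = 4.23e-05), *Plin2* (0.94, adjusted p = 0.0133) and *Mmp12* (2.68, adjusted p = 0.0267).

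Between the 60% and the 40% HFD, *Atp6v0d2* was the 1 member called (2.25, SE 0.52, adjusted p = 0.0372), where 0.745% of all genes passed. The study's cut-offs for differential expression were an unadjusted p up to 0.05 with a ratio from 1.5 upward or from 0.67 downward. Applied here to limma, they were met by 6 of 9 members and by 2.27% of all genes. *Spp1* differed by 0.90 (adjusted p = 0.379). The count at an adjusted p depended on single libraries: it was 0 in 14, 1 in 16 and 2 or more in 6 of the 36 fits that left out 1 library, with 6 called without unligatured WT, ND, number 1 and 3 called without the library labelled unligatured CCL19-KI, 60% HFD, number 3 or without ligatured CCL19-KI, 60% HFD, number 3. Over the 34 libraries whose *Ccl19* matched the label 5 were called, *Gpnmb*, *Atp6v0d2*, *Lgals3*, *Mmp12* and *Fabp5* (1.52% of 17585 genes), and among ligatured mice alone 0 were (0.264% of 16653 genes).

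The inserted *Ccl19* went with no called difference in any member when averaged over diets and ligature: 0 of 9 passed, where 0.459% of all genes did, and 0 of 9 had an unadjusted p below 0.05 by limma. *Spp1* was higher in CCL19-KI than in WT mice by 0.39 (95% interval -0.34 to 1.13, adjusted p = 0.604), *Gpnmb* by 0.46 (adjusted p = 0.592) and *Cd9* by 0.23 (adjusted p = 0.453, the smallest of the set). edgeR on the reads also called 0. With the 34 libraries whose *Ccl19* matched the label, 0 members passed, where 7.35% of 17585 genes did. With libraries weighted by their estimated quality *Spp1* alone was called (0.92, adjusted p = 0.0468), a fit in which 21.3% of all genes passed.

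The study picked *Gpnmb*, *Atp6v0d2* and *Spp1* from the comparison of the genotypes in ligatured mice on the 40% HFD. There *Spp1* was 1.61, 1.96 and 4.17 CPM in WT and 8.35, 28.0 and 1.02 CPM in CCL19-KI mice. *Gpnmb* was 35.6, 26.8 and 18.0 CPM in WT and 103, 256 and 18.6 CPM in CCL19-KI mice, and *Atp6v0d2* was 6.22, 5.88 and 2.65 against 28.1, 51.8 and 3.44 CPM. For each of the 3 genes CCL19-KI mice number 1 and 2 were above every WT mouse, and number 3 lay within or below the WT range. The differences were 1.26 for *Spp1* (95% interval -0.54 to 3.06), 1.59 for *Gpnmb* (95% interval -0.47 to 3.65) and 1.74 for *Atp6v0d2* (95% interval -0.41 to 3.90), each with an adjusted p of 1.00. With 1 library left out in turn these differences ran from 0.35 to 2.27, from 0.75 to 2.61 and from 1.01 to 2.79. At an adjusted p below 0.05 0 of 9 members passed (0.0112% of all genes). With the study's cut-offs for differential expression applied to the unadjusted limma p, also 0 of 9 did (1.25% of all genes). The study applied them to edgeR p-values, so its own list was not repeated here. For the same 2 groups it reported significantly higher *Spp1* in eWAT of CCL19-KI mice, from its sequencing and a separate assay of *Spp1* mRNA. Its abstract gave *Spp1* as higher on ND too. For the groups on the 40% HFD it also reported higher serum osteopontin and a larger osteopontin-stained area of eWAT in CCL19-KI mice.

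In ligatured mice on the other diets no member was called between the genotypes either. On ND *Spp1* was 0.690, 0.709 and 0.310 CPM in WT and 1.96, 2.82 and 2.63 CPM in CCL19-KI mice, groups that did not overlap, and 0 of 9 members passed at an adjusted p below 0.05 (1.03% of all genes). On the 60% HFD *Spp1* was 3.11, 14.5 and 46.7 CPM in WT and 9.81, 35.2 and 3.95 CPM in CCL19-KI mice, and 0 of 9 passed (0.0112% of all genes), with *Spp1* at -0.22 and *Gpnmb* at 0.12. The genotype effect on the 40% HFD minus that on ND, averaged over ligature, passed for 0% of all genes. Without the 2 libraries whose *Ccl19* went against the label it passed for 0.523% of 17585 genes. No difference between diets in the genotype effect passed for any member, except that without the 2 libraries whose *Ccl19* went against the label *Fabp5* did (40% HFD minus ND, averaged over ligature, 2.09, adjusted p = 0.0378), and without unligatured WT, ND, number 1 as well 0 did.

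In unligatured mice 2 members were called between the genotypes, 1 of 9 on ND and 1 of 9 on the 60% HFD. These counts were no higher than the shares over all genes given below and are a description. On ND *Fabp5* was lower in CCL19-KI mice by 1.68 on the log2 scale (adjusted p = 0.0278), where 16.6% of all genes passed; it was 333, 41.1 and 130.1 CPM in the libraries labelled WT and 109.6, 21.5 and 21.3 CPM in CCL19-KI mice, so that the groups overlapped. Without the 2 libraries whose *Ccl19* went against the label *Fabp5* was lower by more, with a log2 difference of -2.46 (adjusted p = 0.00246), and *Lgals3* was called too (-2.25, adjusted p = 0.0210), where 19.5% of 17585 genes passed. Without unligatured WT, ND, number 1 as well, which leaves 1 WT mouse in the comparison, *Fabp5* was at -1.78 (adjusted p = 0.0736) and 0 members were called (4.01% of 17550 genes). The hepatocyte list mean was 1.35 to 1.72 in the unligatured ND libraries labelled WT and 5.44 to 10.69 in CCL19-KI mice, and with it as a covariate *Fabp5* was at -1.23 (adjusted p = 0.319). On the 60% HFD *Cd9* was higher in the libraries labelled CCL19-KI by 1.10 (adjusted p = 0.0422), where 16.8% of all genes passed, at 62.5, 123 and 70.0 CPM against 49.3, 31.7 and 33.5 CPM in WT mice without overlap. Without the 2 libraries the difference of *Cd9* was 1.21 (adjusted p = 0.0411). The hepatocyte list mean was 8.96 to 10.83 in these WT mice and 1.59 to 6.37 in the libraries labelled CCL19-KI, and with it as a covariate *Cd9* was at 1.06 (adjusted p = 0.198). In a fit of the 18 unligatured mice alone neither gene was called. Over the 6 combinations of diet and ligature the count of calls was 1 in place of 2 when unligatured WT, ND, number 1, unligatured CCL19-KI, ND, number 2 or 3, unligatured WT, 60% HFD, number 2 or 3, or the library labelled unligatured CCL19-KI, 60% HFD, number 2 or 3 was left out. The unligatured CCL19-KI library with 123 CPM of *Cd9* also had a high mean of epididymis genes, 6.56 on the log2 scale.

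On the 40% HFD without ligature, 2 members met the study's cut-offs for differential expression, applied to limma (2.70% of all genes did). None passed after adjustment, where 0.00560% of all genes did. *Mmp12* was 1.58, 2.77 and 4.09 CPM in WT and 18.0, 43.5 and 26.7 CPM in CCL19-KI mice, higher by 2.96 (limma, adjusted p = 0.713). *Fabp5* was 34.6, 37.0 and 69.7 CPM in WT and 106, 109 and 85.6 CPM in CCL19-KI mice, higher by 1.14 (limma, adjusted p = 0.727). Neither gene overlapped between the genotypes. *Spp1* was 2.78, 0.708 and 2.05 CPM in WT and 1.70, 10.6 and 10.0 CPM in CCL19-KI mice, which overlapped.

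Ligature went with no called difference in any member averaged over diets and genotypes (0 of 9, where 0.325% of all genes passed). Among the 34 libraries whose *Ccl19* matched the label 0 passed as well (0.358% of 17585 genes). *Spp1* differed by 0.20 (adjusted p = 0.819), and the smallest adjusted p was that of *Plin2*, which differed by -0.34 (adjusted p = 0.437). Within the 6 combinations of diet and genotype 1 of 54 member values passed: *Fabp5* in WT mice on ND was lower with ligature by 1.66 (adjusted p = 0.0488), where 6.73% of all genes passed. It was 333, 41.1 and 130.1 CPM without ligature and 37.0, 33.8 and 42.9 CPM with it, in libraries where the hepatocyte list mean was 1.35 to 1.72 without ligature and 6.12 to 8.93 with it. With that mean as a covariate the difference was -1.26 (adjusted p = 0.226), and the call was also lost at a pseudocount of 5, with no filter, with quantile normalization and with size factors. Over the 34 libraries whose *Ccl19* matched the label it was -2.43 (adjusted p = 0.00367), and without unligatured WT, ND, number 1 as well -1.76 (adjusted p = 0.143). In 24 of the 36 fits that left out 1 library 0 of the 54 values passed.

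*Spp1* went together with most of the other members from mouse to mouse. Over the 36 libraries its log2 level was correlated with 7 of the 8 others (permutation test, two-sided, adjusted p below 0.05 over 17851 genes), where 6.63% of all genes passed. The p-values given are permutation p-values of Pearson's r, and Spearman's rho is given without one. Pearson's r was 0.84 for *Atp6v0d2* (adjusted p = 0.00203, rho 0.81), 0.82 for *Gpnmb* (rho 0.74) and 0.82 for *Mmp12* (rho 0.77). Each had p = 1e-05, the smallest that 100000 permutations can give. *Lgals3* had r = 0.73 (rho 0.65), *Trem2* 0.69 (rho 0.59), *Plin2* 0.58 (permutation p = 1.1e-04, rho 0.67) and *Fabp5* 0.50 (permutation p = 0.00173, adjusted p = 0.0359, rho 0.52). *Cd9* did not pass (r = 0.35, permutation p = 0.0364, adjusted p = 0.164, rho 0.26). Ordered by r among all 17851 genes, *Atp6v0d2* was in place 2, *Gpnmb* in place 7 and *Mmp12* in place 8, while *Cd9* was in place 2139. Without ligatured WT, 60% HFD, number 3 and ligatured CCL19-KI, 60% HFD, number 2, the libraries farthest from the median of *Spp1*, 6 of 8 passed, with r from 0.22 to 0.80, and without the 2 libraries whose *Ccl19* went against the label 7 passed, with r from 0.41 to 0.84.

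The correlations were also computed within each diet, where with 12 libraries no gene of the table passed the adjusted threshold, so that the values of r are given as a description. On the 60% HFD r was 0.94 for *Gpnmb* (permutation p = 2.0e-05, adjusted p = 0.0595), 0.93 for *Mmp12* and 0.90 for *Atp6v0d2*, and 0.26 for *Fabp5*. On ND r lay between 0.27 and 0.72, and on the 40% HFD between -0.01 for *Cd9* and 0.84 for *Atp6v0d2*. When each library was set against the mean of its group of 3, 10.1% of all genes passed and so did 5 members, *Gpnmb* (r = 0.77), *Atp6v0d2* (r = 0.77), *Mmp12* (r = 0.69), *Trem2* (r = 0.65) and *Plin2* (r = 0.62). *Fabp5* was then at 0.12. The 36 pairs among the 9 genes had r from -0.15 to 0.93, with a median of 0.67.

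**Figure D4:**
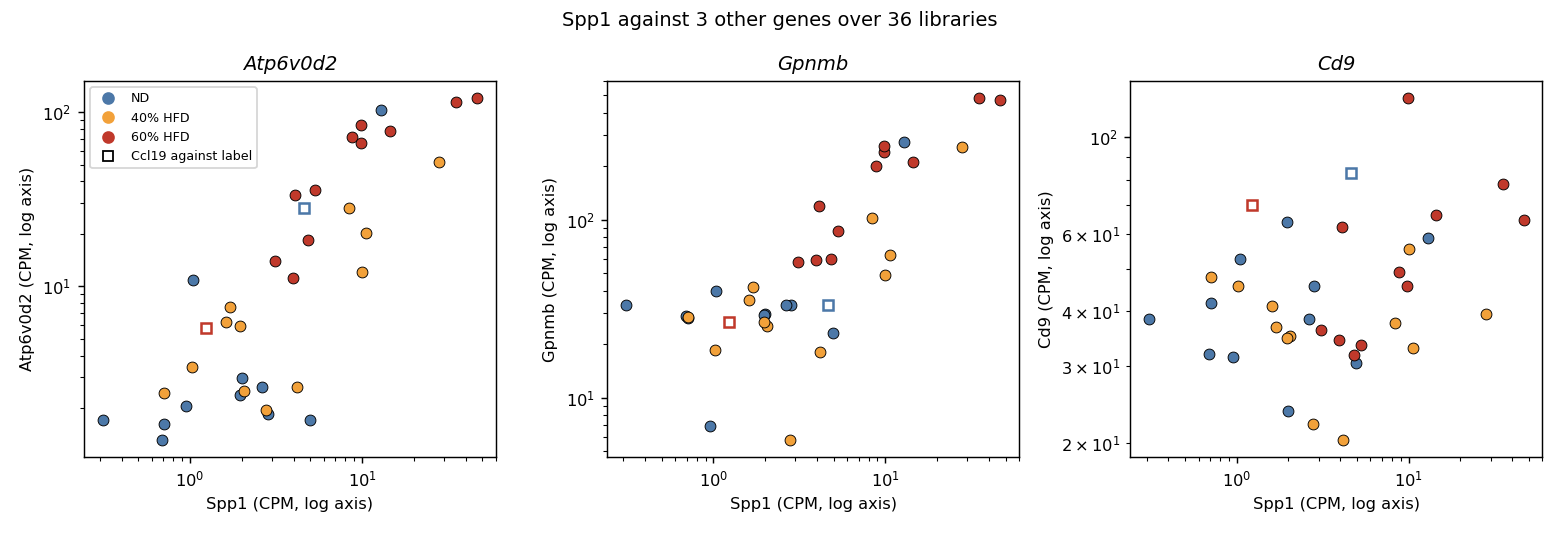
CPM of *Spp1* against that of *Atp6v0d2*, *Gpnmb* and *Cd9* on log axes in the 36 libraries, coloured by diet. Values of r are those of log2(CPM + 1). The points of *Atp6v0d2* (r = 0.84) and *Gpnmb* (r = 0.82) rise together with *Spp1*, and those of *Cd9* (r = 0.35) spread more widely.

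The genes whose pattern over the 36 libraries was most like the mean of the 9 standardized members were *Tm4sf19* (r = 0.98), *Gm20056* (r = 0.97), *Vsig8* (r = 0.97), *Adam8* (r = 0.96) and *Arhgap25* (r = 0.96), followed by *Gdf3*, *Il7r*, *Cd300c2*, *Slc37a2* and *Lat2* (r from 0.94 to 0.96). Most like *Spp1* alone were *Gm20056* (r = 0.84), *Atp6v0d2* (r = 0.84), *Zranb3* (r = 0.83), *Tm4sf19* (r = 0.83), *Cyp2b9* (r = 0.82) and *Gdf3* (r = 0.82). *Tm4sf19*, *Gm20056* and *Gdf3* were low, with medians of 0.409, 0.248 and 0.271 CPM. With the 34 libraries whose *Ccl19* matched the label, r was 0.95 to 0.98 for the 10 genes and 0.82 to 0.85 for the 5 that were compared with *Spp1* beside *Atp6v0d2*.

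Other genes of the same programme, 33 in a list that excluded the 9, rose in part with the 60% HFD against ND: 17 were higher, 0 were lower and 16 did not pass, with a median log2 difference of 0.54. Among these were *Itgax*, the integrin CD11c of fat macrophages (2.14), *Slc37a2* (1.58), the lysosomal proteases *Ctss* (1.15), *Ctsk* (1.10) and *Ctsd* (0.99), and *Lipa*, the lysosomal acid lipase (1.05). Of 19 other subunits of the vacuolar proton pump 9 were higher and 0 lower (median 0.30), such as *Atp6v0a1* (0.79), *Atp6v1a* (0.65) and *Atp6v0d1* (0.31), the broadly expressed paralogue of *Atp6v0d2*. Of 10 receptors for osteopontin 3 were higher, *Cd44* (0.89), *Itgb5* (0.42) and *Itgb1* (0.35), and 0 were lower. Of 10 genes of TREM2 signalling 2 were higher, its adaptor *Tyrobp* (0.83) and *Adam17* (0.40), a protease that sheds it. Of 23 relatives of the members 4 were higher and 1 was lower, *Mmp9* (-1.51). Among the 4 was *Fabp1* (2.98), and the hepatocyte list had a median of 3.05 in this comparison. Over all genes 10.2% were higher and 18.6% passed in either direction, so counts of 2 to 4 in the short lists are a description. On the 40% HFD against ND the counts were 2 higher and 1 lower of 33 programme genes and at most 1 in each of the 4 other lists. There 9.21% of all genes passed. Between the genotypes 0 genes of these 5 lists passed, where 0.459% of all genes did. In the fit of the 34 libraries whose *Ccl19* matched the label, 15.0% of all genes passed on the 60% HFD against ND. There 18 programme genes, 6 pump subunits, 2 osteopontin receptors, 3 genes of TREM2 signalling and 4 relatives were higher. Between the genotypes, where 7.35% passed, 1 osteopontin receptor gene was higher and 3 pump subunits and 1 relative were lower in CCL19-KI mice.

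General macrophage genes were compared beside the members. Of 16 macrophage genes 4 were higher on the 60% HFD than on ND, among them *Cd68* (1.12) and *Adgre1*, which encodes F4/80 (0.79), 1 was lower, *Mertk* (-0.40), and their median difference was 0.30. Over all genes 10.2% were higher in this comparison and 18.6% passed. The summed macrophage level was 903 to 3631 CPM on ND, 1213 to 2681 CPM on the 40% HFD and 958 to 3030.3 CPM on the 60% HFD, with no gene at 0 in any library. With the mean of this list as a covariate 7 members passed on the 60% HFD against ND, where 23.4% of all genes did, *Spp1* at 1.43 (adjusted p = 0.0310), and *Trem2* did not (0.70, adjusted p = 0.0675). The mean log2 level of the 9 members minus that of the macrophage list had a median of -0.92 on ND, -0.70 on the 40% HFD and 0.69 on the 60% HFD. Over 36 libraries *Spp1* had r = 0.24 with the macrophage list mean, *Gpnmb* 0.52 and *Lgals3* 0.71. Of 10 genes of resident macrophages 0 were higher and 2 lower, *Cd163* (-0.71) and *Lyve1* (-0.89), and of 8 monocyte genes 2 were higher, *S100a8* (1.70) and *Chil3* (0.66). Without the 2 libraries whose *Ccl19* went against the label 4 macrophage genes were higher and 1 lower, 0 resident genes were called, and 1 monocyte gene was higher. In that fit 15.0% of all genes passed.

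Markers of other cells were measured beside these on the 60% HFD against ND, where 10.2% of all genes were higher and 18.6% passed. Kidney tubule genes were higher for 5 of 11 (median 0.71, summed level 66.6 to 313 CPM on ND and 27.0 to 534 CPM on the 60% HFD, with 8 of 11 at 0 in some library of each), and *Spp1*, which kidney tubules also express, had r = 0.43 with that list mean and 0.30 with that of the hepatocyte list. *Plin2* had r = 0.64 with the hepatocyte list. Of 13 adipocyte genes 3 were higher and 4 lower, of 9 mesothelial genes 3 were lower, of 10 skeletal muscle genes 2 were lower, and of 3 osteoblast genes 1 was higher, *Runx2* (1.00). No B-cell gene of 11, epididymis gene of 6 tested or epithelial keratin gene of 5 passed. The summed epididymis level ran from 0.659 to 7788 CPM on ND and from 0.154 to 10700.3 CPM on the 60% HFD, high values being those of single libraries. Over the 34 libraries whose *Ccl19* matched the label 12 hepatocyte, 5 kidney, 3 adipocyte and 1 osteoblast gene were higher, and 3 adipocyte, 2 muscle and 1 mesothelial gene were lower. The part of these cells in the differences of the 9 genes was not tested beyond the fits with a list mean as covariate.

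**Figure D5:**
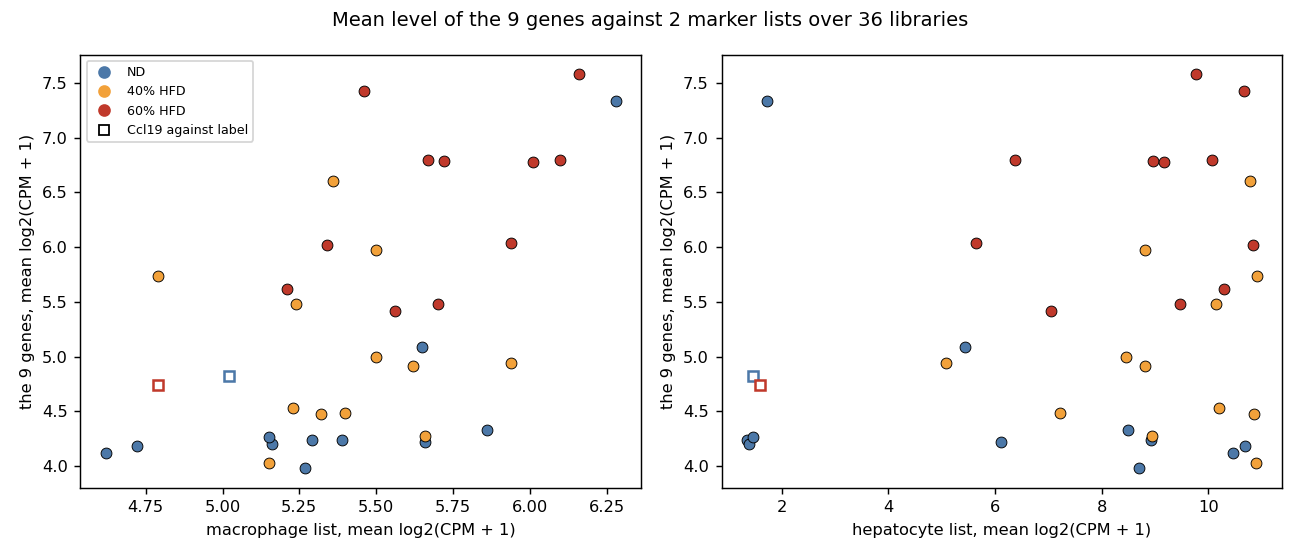
Mean log2(CPM + 1) of the 9 genes in each of the 36 libraries against the mean of the macrophage list and against the mean of the hepatocyte list, coloured by diet. The members minus the macrophage list had a median of -0.92 on ND and 0.69 on the 60% HFD, and 6 libraries lie apart at a hepatocyte mean of at most 1.72.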

How the data were processed

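RNA of eWAT, from which lymph nodes had been removed, was rRNA-depleted, made into directional libraries and sequenced by the authors, who trimmed reads with Trimmomatic 0.38, aligned and counted them with Bowtie2 within RSEM 1.3.0 and normalized them with edgeR. The deposited signal is their edgeR-normalized CPM for 24750 genes in 36 libraries. It held whole reads for 100.0% of values (tolerance 0.01), from which reads and depth were recovered. The methods name mm10 and the submitters' processing notes GRCm39; the table carries Ensembl gene IDs alone, so no coordinate comes from it, and positions were taken from GENCODE M21 on GRCm38.

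Genes at 1 CPM or more in at least 3 libraries were fitted with limma 3.58.1 (R 4.3.3, trended variance) on log2(CPM + 1) over all 12 groups, with Benjamini-Hochberg adjustment over 17852 genes. Fold changes are on that scale, which understates the change of low genes. Intervals are 95%. Correlations used 100000 permutations (numpy 2.4.6). edgeR 4.0.16 on the recovered reads, rounded to whole numbers, was an alternative, and called 3108 genes on the 60% HFD against ND, where limma called 3315. Scripts were tested on simulated data. Groups came from the labels, which give ligature for 18 mice and 10 weeks of feeding, while the series' design text speaks of ligature in every group. The members and lists were chosen with earlier results of these data known; the genes named beside the members are the 10 most like their mean, the 5 most like *Spp1* and examples of each list.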

Additional observations from a re-analysis of the deposited data

How the results depend on the processing

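The count of 8 members higher on the 60% HFD than on ND was 7 to 8 in the 36 fits that left out 1 library and under the alternatives run, except for 4 with the hepatocyte list mean as covariate and 9 with sample quality weights (44.0% of all genes), which added *Cd9* (0.53, adjusted p = 0.00619). Of 1047 values of single members under 18 alternatives, 986 kept their direction and side of the threshold, 22 passed it newly, 18 no longer passed and 21 changed sign, none of these last being called. For the 40% HFD against ND (1 as reported, 0 to 2 without 1 library) 0 were called at a pseudocount of 5, with no filter, with quantile normalization, with edgeR, without the 2 libraries whose *Ccl19* went against the label, without these and unligatured WT, ND, number 1, and with hepatocyte or epididymis covariates, and 3 with sample quality weights or in ligatured mice only. For the 60% against the 40% HFD (1; 0 to 6 without 1 library) it was 5 with weights, 2 with edgeR, 0 with the macrophage covariate, 5 without the 2 libraries, 6 without the 3, 3 with the epididymis covariate and 0 in ligatured mice only. For CCL19-KI against WT averaged (0; 0 to 0) it was 1 with weights, and in the 6 combinations (2; 1 to 3) 6 with weights, 4 with edgeR, 1 with the macrophage covariate, 0 in a fit of the 18 mice of one ligature status, 1 without the 3 libraries, 0 with the hepatocyte and 1 with the epididymis covariate. Diet in the 4 combinations (10; 4 to 15) gave 37 with weights, 20 without the 3 libraries and 5 with the hepatocyte covariate. Ligature averaged gave 0 to 0 without 1 library, and in the 6 combinations (1; 0 to 2) 0 at a pseudocount of 5, with no filter, quantile normalization, size factors or the hepatocyte covariate, 5 with weights, 3 with edgeR and 2 without the 2 libraries. Interactions (0; 0 to 3) gave 13 with weights and 3 without the 2 libraries. Calls over all genes were also more frequent with weights. In the averaged comparisons 26.9% passed on the 40% HFD against ND, 21.3% between the genotypes and 12.6% for ligature. The shares with weights in single combinations and interactions are not given here, so the larger member counts are a description. The correlation count (7) was 6 to 7 with 1 library left out in turn, at other pseudocounts and with other normalizations. It was 5 with each library set against the mean of its group. The cause of these changes was not tested.

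Signs changed as follows. Against ND on the 40% HFD *Spp1* was at -0.33, *Gpnmb* at -0.43 and *Plin2* at -0.25 with the hepatocyte covariate, *Trem2* at 0.33 with weights and 0.29 without the 3 libraries, and *Cd9* at 0.07 with weights. Between the genotypes *Lgals3* was at 0.04 with quantile normalization, 0.10 with weights, 0.13 with the macrophage covariate, 0.18 without the 3 libraries and 0.23 in ligatured mice only. For ligature *Atp6v0d2* was at 0.16 with weights and 0.11 without the 3, *Trem2* at -0.14 and *Lgals3* at -0.12 with the macrophage covariate and at -0.00 and -0.03 without the 2, and *Cd9* at 0.06 without the 3 and 0.10 with the epididymis covariate. In ligatured mice on the 40% HFD *Fabp5* was at 0.06 with weights and 0.05 with the macrophage covariate. With 1 library left out in turn, *Gpnmb* (-0.17 to 0.47) and *Trem2* (-0.17 to 0.25) on the 40% HFD against ND, *Trem2* (-0.02 to 0.27) and *Lgals3* (-0.17 to 0.10) between the genotypes, and *Atp6v0d2* (-0.42 to 0.00) and *Cd9* (-0.11 to -0.00) for ligature changed sign, as did *Fabp5* (-0.26 to 0.13) between the genotypes in ligatured mice and *Cd9* (-0.01 to 0.53) and *Plin2* (-0.75 to 0.34) in unligatured mice on the 40% HFD.

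The replicate block left every count of calls within 1.5 times, with 8 members on the 60% HFD against ND. Deviations of libraries from different groups that share a number had r from -0.66 to 0.71 (median -0.02). For libraries from different groups with different numbers, r ran from -0.77 to 0.77 (median 0.02). Whether the numbers pair mice was not tested. The covariate fits other than the macrophage one, the fits without the 2 or 3 libraries and the ligatured-only fit were chosen after seeing the data. The weights stopped before convergence. The fit without 3 libraries leaves 1 unligatured WT mouse on ND, assumed to vary like the other groups. The fit of 18 mice gives no averaged, ligature or full interaction value. At 3 mice per group and this depth, low genes such as *Spp1* on ND rest on few reads.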
